A study of Homo sapiens with 12 samples.

Results

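Well-expressed non-coding transcripts were described across 4 lines of the human cell line MCF10AT, mammary epithelial cells transformed by HRasG12V, in which the acetyltransferase p300 had been depleted or not. The transcripts are the rows of the deposited count table whose RefSeq accession starts with NR_, the prefix RefSeq gives to a transcript it does not annotate as coding, and which held at least 200 counts in each of the 12 libraries. The members were thus chosen by their raw counts, and the rule found 220 of the 9835 NR_ rows, among 29094 rows in all, and a further 8587 rows of coding transcripts (accession prefix NM_) met the same floor. EP300 KD1 and EP300 KD2 are stable lines made with 2 different lentiviral shRNAs against EP300, the gene of p300, and puromycin selection, and NS1 and NS2 are lines made in the same way with non-silencing hairpins (n = 3 libraries each). Which control belongs to which hairpin is not spelled out, so controls were matched by number, and each line is 1 transduced population. Membership itself is therefore a description of levels. A row that crossed 200 counts in any 1 library was left out, which removes rows that fell or rose through that level.

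Non-coding transcripts of this kind are made by several routes. Long non-coding RNAs (lncRNAs) are transcribed and mostly spliced and polyadenylated like messenger RNAs, and some act as RNA, some are hosts whose introns hold small nucleolar RNAs (snoRNAs) or whose hairpins yield microRNAs, and some arise beside the start of a coding gene on the opposite strand. Transcribed pseudogenes are copies of coding genes that have lost their coding capacity and can keep long runs of the parent's sequence. p300 acetylates histones at enhancers and promoters and serves as a coactivator for many transcription factors.

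EP300 itself had 108, 106 and 108 CPM (read counts scaled to library size with TMM factors) in EP300 KD1, against 171, 177 and 167 CPM in NS1. It had 95.1, 99.9 and 92.3 CPM in EP300 KD2, against 165, 180 and 177 CPM in NS2. Every shRNA library lay below every control library, and the log2 changes were -0.68 ± 0.03 and -0.86 ± 0.04 (SE, edgeR adjusted p = 2.6e-12 and 1.1e-13). Libraries held 31396653 to 45606950 counts, and the 220 rows took 0.748% to 0.809% of them. All 5 markers of basal mammary epithelium were tested and lower with both hairpins, summing to 3042 to 3099 CPM in EP300 KD1 against 4605 to 4802 in NS1, and to 2367 to 2485 CPM in EP300 KD2 against 5384 to 5513 in NS2. The 3 fibroblast markers summed to 43.8 to 45.4 CPM in EP300 KD1 against 7.88 to 8.16 in NS1, and to 11.05 to 12.1 CPM in EP300 KD2 against 5.05 to 6.08 in NS2. That sum was nearly all DCN, with LUM at 0 in every library, and PDGFRB was higher with the first hairpin alone (log2 1.13, and -0.19 with the second, adjusted p = 0.47). The part of these shifts in the results that follow was not tested, and in bulk RNA fewer cells of a type and less RNA per cell cannot be told apart. In the endothelial list 1 of 3 markers was tested and was lower with both hairpins, in the neural list 1 of 3 was tested and was higher with both, and in the general epithelial list 3 of 4 were lower with each hairpin. Leukocyte and hepatocyte markers summed to no more than 0.145 CPM in any library.

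Of the 220 rows, 101 are lncRNA genes, 72 are pseudogenes, 27 carry the symbol of a coding gene, 6 are annotated as a microRNA or a snoRNA, and 14 had no gene name in the tables used. The lncRNAs comprise 10 rows whose genes hold snoRNAs, 11 that hold microRNAs, 25 antisense genes, 18 LINC genes, 10 divergent genes (suffix -DT) and 27 others. The average level of a row over all libraries was 14.5 CPM at the median and 7.05 CPM at the lowest. At 200 counts, counting error alone gives a coefficient of variation of 7.07%, and the median over rows and groups was 4.39%. The least even row was RPL13AP5, a ribosomal protein pseudogene, whose 3 libraries of NS2 had 16.2, 11.5 and 22.6 CPM. Just inside the floor lay CECR7 with 201 counts in its lowest library, TNS2-AS1 with 201 and SNHG20 with 202, and just outside lay GOLGA2P5 and APTR with 199 each and PDCD6IPP2 with 198.

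With the first hairpin, 147 of the 220 rows changed (66.8%, edgeR quasi-likelihood test, adjusted p under 0.05 over all rows tested), 62 higher and 85 lower (32.6% and 32.3% of all rows). The share among all 13424 rows tested was 64.9%, and among coding rows over the same floor it was 72.7%. With the second hairpin 106 rows changed (48.2%), 35 higher and 71 lower (27.9% and 29.9% of all rows), against 57.8% of all rows and 67.8% of the coding rows. The share of members that passed was therefore near that of all rows with the first hairpin and below it with the second. This depended on the floor: with 500 counts in each library the shares were 75.6% and 61%, both above those of all rows. Changes were small: the median absolute log2 change was 0.23 with the first hairpin and 0.15 with the second. It was 0.24 and 0.20 over all rows, and 0.18 and 0.16 over the coding rows above the same floor. All rows include rows below that floor, so the 2-fold shares that follow are not matched for level. Changes of at least 2-fold were called in 2 rows higher with the first hairpin (LINC02015 and MIR31HG; 0.909%, against 5.85% of all rows) and in 3 rows lower with the second (KILH, the NR_ row of SARS1 and LINC00673; 1.36%, against 5.13%). All libraries of the groups lay apart in 150 rows (68.2%, against 67.7% of all rows) with the first hairpin and in 119 (54.1%, against 63.4%) with the second. The balance of calls with the second hairpin depended on scaling. Library totals without TMM factors gave 60 rows higher and 48 lower, upper-quartile factors 53 and 57, and no filter on low counts 51 and 54. The splits into higher and lower that follow, by class as well, are with TMM factors and the filter unless stated.

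Both hairpins changed 56 rows in the same direction (25.5%, against 32.6% of all rows and 36.4% of the coding rows). Of these, 16 were higher and 40 lower, 7.27% and 18.2% against 15.3% and 17.3% of all rows. That split rests in part on the second hairpin's calls, whose balance moved with scaling. Another 24 rows were called in opposite directions (10.9%, against 11.2%), 13 of them higher with the first hairpin and lower with the second (5.5% of all rows) and 11 the reverse (5.68%), and 47 were called with neither (21.4%, against 21.1%). The change itself differed between the hairpins for 99 rows (against 50.8% of all rows), 46 with a more positive change with the second hairpin and 53 with a more negative one (21.6% and 29.2% of all rows). Library totals alone turned that split to 65 and 44. The controls also differed from each other: 46 rows passed for NS2 against NS1 (20.9%, against 27.5% of all rows), 26 higher and 20 lower (14.2% and 13.4% of all rows), and the control libraries lay apart in 77 (35.0%, against 40.3%).

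**Figure D1:**
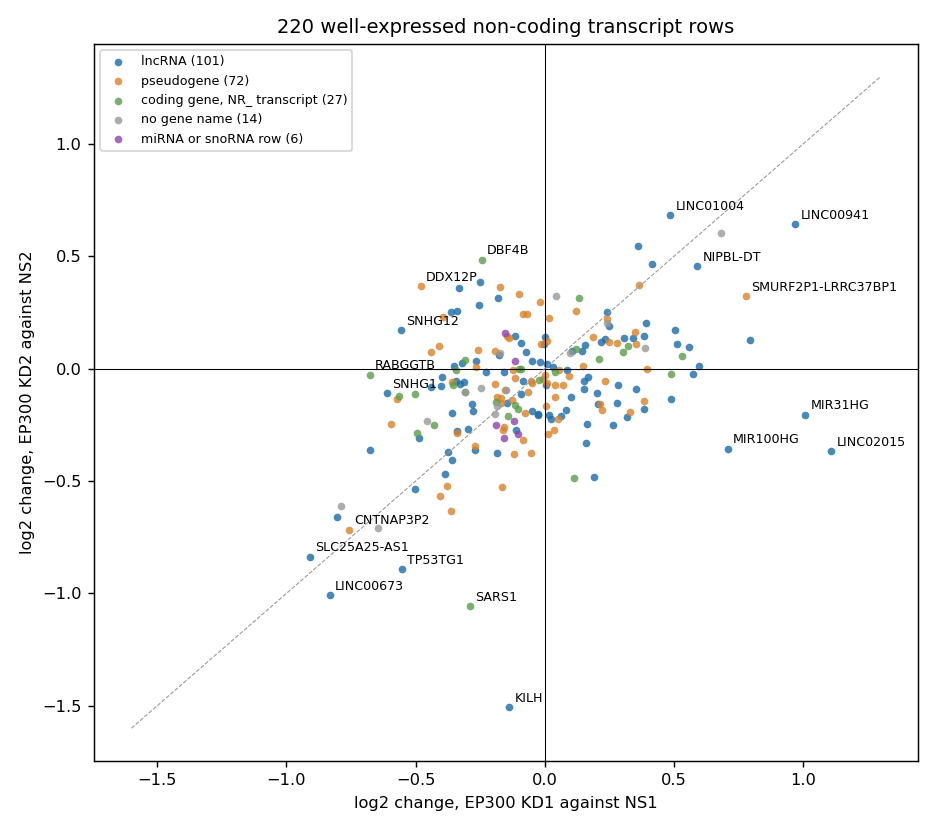
Each point is 1 of the 220 rows, placed by its log2 change in EP300 KD1 against NS1 (horizontal axis) and in EP300 KD2 against NS2 (vertical axis), coloured by class. Most points lie within 0.5 of 0 on both axes, LINC02015, MIR31HG and MIR100HG lie to the right and below 0, and KILH lies lowest at -1.51 with the second hairpin. The dashed line marks equal change.

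Among rows lower with both hairpins, the largest losses by the smaller of the 2 changes among rows with a gene name were in SLC25A25-AS1, LINC00673, CNTNAP3P2, SH3PXD2A-AS1, TP53TG1, UBA6-DT, PLEKHM1P1 and PVT1. LINC00673, an intergenic lncRNA gene (chromosome 17, 72403322 to 72592804, GRCh38), had 15.9, 17.1 and 16.7 CPM in EP300 KD1, against 29.5, 28.98 and 29.9 CPM in NS1. It had 12.98, 13.3 and 11.1 CPM in EP300 KD2, against 26.3, 24.1 and 25.04 CPM in NS2. Both shRNA lines lay below both controls with no overlap (log2 -0.83 ± 0.06 and -1.01 ± 0.06, SE, edgeR adjusted p = 1.1e-10 and 1.8e-11). SLC25A25-AS1, antisense to a mitochondrial carrier gene on chromosome 9, had 14.98, 18.7 and 15.8 CPM in EP300 KD1, against 30.2, 32.02 and 31 CPM in NS1. It had 13.2, 13.5 and 13.3 CPM in EP300 KD2, against 22.3, 24.1 and 24.98 CPM in NS2. This left 53.1% and 56.0% of the matched control mean, and again no library of a shRNA line reached a control (log2 -0.91 ± 0.06 and -0.84 ± 0.07, edgeR adjusted p = 1.8e-10 and 1.8e-09).

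SH3PXD2A-AS1, antisense to the gene of the invadopodium scaffold TKS5, had 19.7 ± 0.680 CPM in EP300 KD1 against 34.4 ± 1.85 in NS1, and 18.6 ± 0.478 CPM in EP300 KD2 against 29.4 ± 1.29 in NS2 (SD, n = 3 each). Its sense gene SH3PXD2A fell as well, with log2 changes of -0.43 and -0.32 beside -0.81 and -0.66 for the antisense row. TP53TG1, named for its induction by p53 (chromosome 7, 87325347 to 87345492), had 8.95, 8.11 and 9.64 CPM in EP300 KD1, against 13.5, 12.8 and 12.9 CPM in NS1. In EP300 KD2 it had 6.35, 6.81 and 6.73 CPM, against 12.4, 12.4 and 12.01 CPM in NS2. The groups did not overlap, and the loss was larger with the second hairpin (log2 -0.55 and -0.89, difference -0.34 ± 0.10, edgeR adjusted p = 0.0084). CROT, a peroxisomal carnitine acyltransferase gene whose start lies 172 bases from that of TP53TG1 on the opposite strand, also fell with both, by 0.85 and by 0.56 on the log2 scale.

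PVT1, the lncRNA gene beside MYC, had 22.8, 23.1 and 21.5 CPM in EP300 KD1, against 29.4, 29.1 and 29.5 CPM in NS1. It had 21.3, 21.4 and 21.01 CPM in EP300 KD2, against 28.7, 29.4 and 29.96 CPM in NS2. The 2 controls were alike here and both shRNA lines were lower (log2 -0.39 and -0.47, edgeR adjusted p = 4.0e-08 and 3.6e-09). FIRRE, an X-linked nuclear lncRNA, fell by 0.49 and by 0.31 on the log2 scale. UBA6-DT, which starts 123 bases from the ubiquitin-activating enzyme gene UBA6, fell by 0.50 and by 0.53 on the log2 scale, whereas UBA6 was higher with the first hairpin (0.14) and did not pass with the second (0.03, adjusted p = 0.37). PLEKHM1P1, a pseudogene of the lysosomal adaptor PLEKHM1, fell by 0.40 and by 0.56 on the log2 scale.

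Rows higher with both hairpins were fewer with TMM factors. In the order of the smaller change, those with a gene name and reported here were led by LINC00941, LINC01004, NIPBL-DT, ZSCAN12P1, LINC00342, SMURF2P1-LRRC37BP1 and KCNQ1OT1. LINC00941 (chromosome 12, 30795681 to 30802711) had 12.6, 12.6 and 13.1 CPM in EP300 KD1, against 6.21, 7.07 and 6.31 CPM in NS1. It had 12.5, 14.4 and 12.8 CPM in EP300 KD2, against 8.59, 8.51 and 8.33 CPM in NS2. The shRNA lines reached similar levels and the controls differed, so the change was larger against NS1 (log2 0.97 ± 0.07) than against NS2 (0.64 ± 0.07), with a difference of -0.33 (edgeR adjusted p = 0.013). LINC01004 had 11.2, 12.5 and 11.5 CPM in EP300 KD1, against 8.14, 8.42 and 8.58 CPM in NS1. It had 11.4, 11.3 and 11.9 CPM in EP300 KD2, against 7.36, 6.83 and 7.34 CPM in NS2, with no overlap in either set (log2 0.48 and 0.68, edgeR adjusted p = 3.8e-06 and 6.8e-08).

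NIPBL-DT starts 75 bases from the gene of the cohesin loader NIPBL, on the other strand. It had 12.9, 12.04 and 13.2 CPM in EP300 KD1, against 7.70, 8.76 and 8.85 CPM in NS1. In EP300 KD2 it had 13.3, 12.2 and 13.2 CPM, against 9.98, 9.21 and 9.003 CPM in NS2. The divergent transcript therefore stood at 151% and 137% of its controls, while NIPBL was 0.08 higher with the first hairpin and 0.09 lower with the second on the log2 scale. KCNQ1OT1, the imprinted antisense RNA within KCNQ1, was 0.24 and 0.25 higher (edgeR adjusted p = 0.0087 and 0.0065), and ZSCAN12P1, a zinc finger pseudogene, 0.36 and 0.37. SMURF2P1-LRRC37BP1, a fused pseudogene locus, was 0.78 and 0.32 higher, and LINC00342 0.36 and 0.54.

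**Figure D2:**
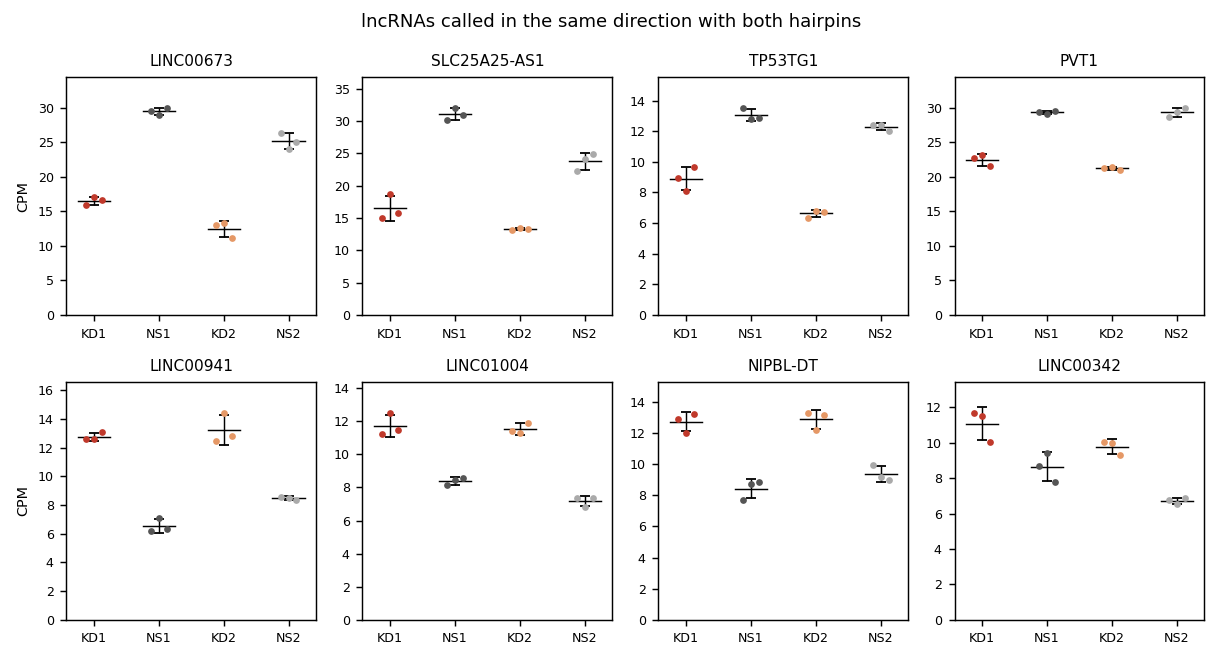
Levels in CPM (vertical axis, from 0) of 8 lncRNAs in EP300 KD1, NS1, EP300 KD2 and NS2, with a point per library and bars for the mean and SD of 3 libraries. In the upper row both shRNA lines lie below their controls, and in the lower row above them.

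The lncRNA rows whose genes hold snoRNAs, the class of 10 counted above, were examined as a group. Many host RNAs have little coding capacity, and the snoRNAs cut from its introns guide the modification of ribosomal RNA. All 10 such rows were lower with the first hairpin (32.3% of all rows tested were), with a median log2 change of -0.36. The 10 rows include a larger and a smaller row of SNHG4. They leave out RABGGTB, which has a coding symbol, and SNHG20, which was classed as a microRNA host. With the second hairpin 3 were higher and 4 lower (27.9% and 29.9% of all rows), with a median of -0.03. The change was more positive with the second hairpin in 7 of 10 (21.6% of all rows). With library totals alone the second hairpin's count became 4 higher and 2 lower (median 0.04), and the first hairpin's 10 lower. Without EP300 KD1 replicate 2, 8 of the 10 were lower with the first hairpin. In the wider list of 24 host genes, 16 were tested. With the first hairpin 13 of them were lower and 1, SNHG9, higher (32.3% and 32.6% of all rows). With the second 5 were lower and 3 higher (29.9% and 27.9% of all rows). With library totals alone, upper-quartile factors or no filter, the second hairpin's count turned to 3 lower and 6 higher.

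SNHG1, host of a run of box C/D snoRNAs (chromosome 11, 62851978 to 62855885), had 99.1, 99.3 and 97.1 CPM in EP300 KD1, against 148, 150 and 153 CPM in NS1. It had 142, 141 and 146 CPM in EP300 KD2, against 149, 159 and 155 CPM in NS2. The first hairpin's libraries stood apart from the other 9, and the second's lay just under their controls (log2 -0.61 ± 0.03 and -0.11 ± 0.03, edgeR adjusted p = 5.1e-13 and 0.0021; difference 0.50 ± 0.04, adjusted p = 3.8e-09). SLC3A2, the amino acid transporter subunit that starts 224 bases away on the other strand, fell by 0.93 and by 0.80 on the log2 scale. SNHG12 had 21.4, 20.03 and 21.1 CPM in EP300 KD1, against 28.4, 31.7 and 31.8 CPM in NS1. In EP300 KD2 it had 33.7, 30.05 and 33.6 CPM, against 28.8, 27.1 and 30.5 CPM in NS2, so that it was lower with the first hairpin and, with overlapping libraries, higher with the second (log2 -0.56 and 0.17, edgeR adjusted p = 7.9e-08 and 0.012). SNHG4, whose gene starts at the same base as MATR3, was -0.18 and 0.32 in its larger row and -0.36 and 0.25 in its smaller row.

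GAS5, a growth-arrest-specific host gene, differed from these. It had 232, 215 and 221 CPM in EP300 KD1, against 295, 279.1 and 292 CPM in NS1. It had 228, 214 and 226 CPM in EP300 KD2, against 285, 282 and 296 CPM in NS2. It fell by 0.37 on the log2 scale with each hairpin, to 77.2% and 77.4% of its controls, and the 2 changes differed by 0.00 ± 0.05 (edgeR adjusted p = 0.95). EPB41L4A-AS1 was lower with both (log2 -0.36 and -0.20), beside its sense gene EPB41L4A, a band 4.1 family gene, which averaged 1.22 CPM in EP300 KD1 against 49.3 in NS1, and 1.14 CPM in EP300 KD2 against 27.9 in NS2. SNHG15 and DANCR were lower with the first hairpin (-0.40 and -0.27) and did not pass with the second (-0.04 and 0.03, adjusted p = 0.60 and 0.45). SNHG6 was lower with the first hairpin (-0.16) and did not pass with the second (-0.02). SNHG5 was -0.09 and -0.11, calls that were lost when single libraries were left out (the first without either of EP300 KD1 replicates 1 and 2 or NS1 replicates 1 and 3, the second without EP300 KD2 replicate 2 or NS2 replicates 1 and 3).

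Several host genes are known for a 5′ terminal oligopyrimidine start, a C followed by a run of pyrimidines that ties a transcript's translation to growth signals. The stretch from 10 bases before to 30 bases after the annotated start was therefore read for the 7 host genes with a promoter entry, 5 of which are printed (RefSeq, GRCh38.p14, transcribed strand, 5′ to 3′), with the C and its pyrimidine run at the start in capitals.
SNHG4 (chr5:139274091-139274130, plus strand): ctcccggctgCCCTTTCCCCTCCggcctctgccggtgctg
SNHG12 (chr1:28581844-28581883, minus strand): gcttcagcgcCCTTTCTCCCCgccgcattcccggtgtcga
SNHG5 (chr6:85678704-85678743, minus strand): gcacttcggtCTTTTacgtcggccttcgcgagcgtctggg
SNHG1 (chr11:62855856-62855895, minus strand): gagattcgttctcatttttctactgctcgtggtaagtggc
GAS5 (chr1:173869016-173869055, minus strand): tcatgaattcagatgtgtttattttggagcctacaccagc
A C with at least 4 pyrimidines after it began 3 of the 7 annotated starts (SNHG4, SNHG12 and SNHG5), 4.07% of all 35116 promoters in the table and 54.3% of 81 promoters of ribosomal protein genes. With a start allowed up to 5 bases from the annotated one, 4 of the 7 (DANCR as well) and 21.1% of all promoters held it, on the transcribed strand. The rows with and without the run at the annotated start overlap in their changes (SNHG12 -0.56 and SNHG5 -0.09 with the first hairpin, SNHG1 -0.61 and GAS5 -0.37). Where transcription starts in these cells was not tested, so a host without the run at its annotated start is not shown to lack one.

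Proteins that bind snoRNAs were set beside the hosts. Of 10 snoRNP genes tested, 7 were lower with the first hairpin (32.3% of all rows) and 3 did not pass (median log2 -0.24), 5 were higher with the second (27.9% of all rows) and 5 did not pass (median 0.09; 8 were higher with library totals alone), and the change was more positive with the second in 8 (21.6% of all rows). FBL, the fibrillarin methyltransferase, averaged 419 CPM in EP300 KD1 against 508 in NS1, and 523 CPM in EP300 KD2 against 495 in NS2 (log2 -0.28 and 0.08, edgeR adjusted p = 3.1e-09 and 0.0059). NOP58, a core box C/D protein, was -0.21 and 0.30. The rows read for NOP56 and DKC1, which passed with neither hairpin, had group means of 0.31 to 0.44 and 0.75 to 0.98 CPM. Their changes are therefore poorly measured, and both count among the genes that did not pass.

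**Figure D3:**
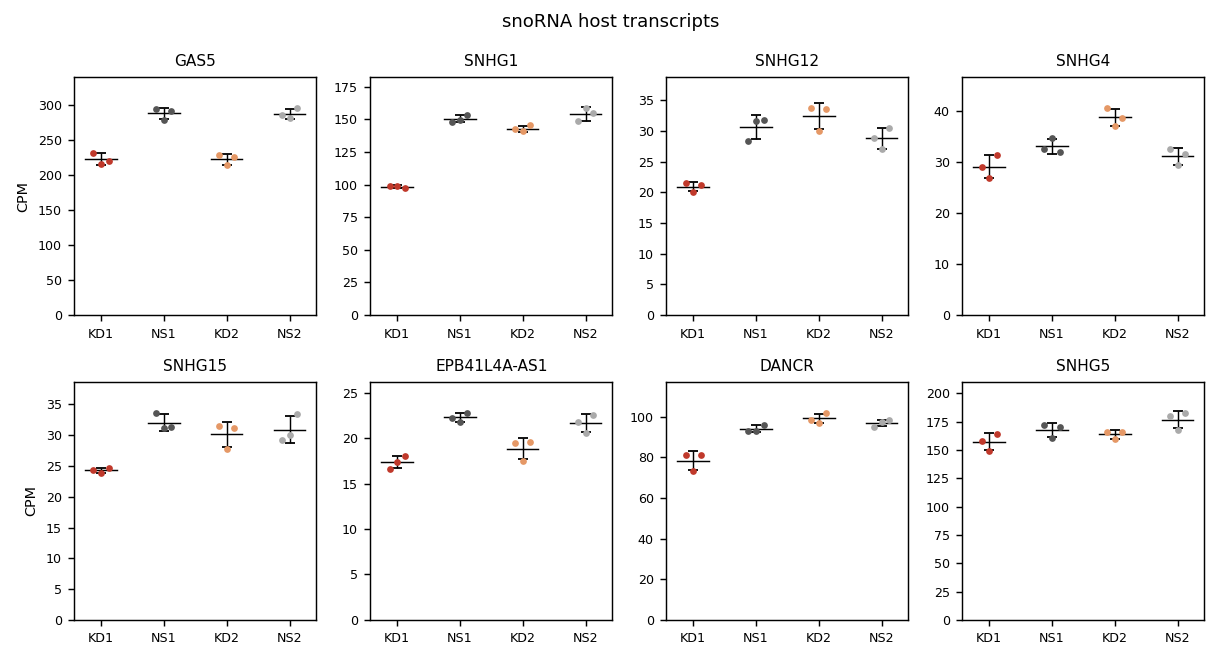
Levels in CPM (vertical axis, from 0) of 8 snoRNA host transcripts in EP300 KD1, NS1, EP300 KD2 and NS2, with a point per library and bars for the mean and SD of 3 libraries. EP300 KD1 lies below NS1 in all 8, although libraries overlap in SNHG5. In GAS5 both shRNA lines lie apart below their controls by a like amount.

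The nuclear and cytoplasmic lncRNAs with known roles as RNA were examined next. NEAT1, the scaffold of paraspeckles (chromosome 11, 65422798 to 65445540), had 368, 374 and 342 CPM in EP300 KD1, against 250, 271 and 240 CPM in NS1. It had 374, 327 and 303 CPM in EP300 KD2, against 313, 293 and 328 CPM in NS2. The first set did not overlap and the second did (log2 0.51 ± 0.06, adjusted p = 4.5e-07, and 0.11 ± 0.06, adjusted p = 0.13, edgeR), and NS2 was itself 0.30 above NS1 (adjusted p = 0.0011). Set against the mean of both control lines, an alternative chosen after seeing the data, NEAT1 was higher with both (0.36 and 0.26, adjusted p = 4.2e-06 and 0.00025). Of 9 paraspeckle protein genes, 6 were lower with the first hairpin (32.3% of all rows) and 3 did not pass, and 7 were higher with the second (27.9%) and 2 did not pass. HNRNPK averaged 931 CPM in EP300 KD1 against 1012 in NS1, and 1034 CPM in EP300 KD2 against 969 in NS2.

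MALAT1, a nuclear speckle RNA, had 327, 349 and 402 CPM in EP300 KD1, against 289, 366 and 284 CPM in NS1. It had 290, 260 and 270 CPM in EP300 KD2, against 280, 308 and 297 CPM in NS2. Libraries overlapped in both sets (log2 0.20, adjusted p = 0.030, and -0.11, adjusted p = 0.25, edgeR), and the first call was lost without EP300 KD1 replicate 3 (0.11), NS1 replicate 1 (0.15) or NS1 replicate 3 (0.14). NORAD, a cytoplasmic RNA that binds Pumilio proteins, had 391.9, 384 and 394 CPM in EP300 KD1, against 363, 367 and 362 CPM in NS1. It had 338, 326 and 321 CPM in EP300 KD2, against 366, 353 and 357 CPM in NS2. Its changes were opposite and small but without overlap (0.10 and -0.13, edgeR adjusted p = 0.0012 and 0.00016; difference -0.23, adjusted p = 1.6e-05). OIP5-AS1 passed with neither hairpin (-0.07 and 0.08, adjusted p = 0.081 and 0.076). None of the 11 RNA polymerase III and small structural RNAs examined reached the floor, and of the 5 tested 3 were higher with the first hairpin and 5 with the second (32.6% and 27.9% of all rows). Their summed level was 15.3 to 38.1 CPM in EP300 KD1 against 8.29 to 11.7 in NS1, and 8.95 to 31.2 CPM in EP300 KD2 against 6.06 to 10.9 in NS2, so that the second set overlapped, in libraries made with a kit that selects polyadenylated RNA.

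Hosts of microRNAs held some of the larger opposite changes. MIR31HG lies over MIR31 at the 9p21 interferon cluster, and MIR100HG carries MIR100, MIRLET7A2 and MIR125B1. The row of SPACA6 overlaps MIR99B, MIRLET7E and MIR125A, a cluster that repeats the same 3 families, and was picked with its values known. Their mature sequences are given 5′ to 3′ (RefSeq, GRCh38.p14) with the seed, bases 2 to 8, in capitals, because the pairs share it.
miR-100-5p (MIR100HG): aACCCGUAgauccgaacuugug
miR-99b-5p (SPACA6 row): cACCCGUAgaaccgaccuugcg
let-7a-5p (MIR100HG): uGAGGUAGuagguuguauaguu
let-7e-5p (SPACA6 row): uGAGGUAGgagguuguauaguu
miR-125b-5p (MIR100HG): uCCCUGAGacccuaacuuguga
miR-125a-5p (SPACA6 row): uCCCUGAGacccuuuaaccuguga
miR-31-5p (MIR31HG): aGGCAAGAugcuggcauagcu
These libraries measure the host transcripts and not the mature microRNAs, whose levels were not analysed here.

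MIR31HG (chromosome 9, 21454268 to 21559798) had 15.7, 16.1 and 15.5 CPM in EP300 KD1, against 7.70, 7.71 and 8.05 CPM in NS1. It had 8.66, 8.35 and 9.13 CPM in EP300 KD2, against 9.82, 10.7 and 9.62 CPM in NS2. The first hairpin gave 202% of its control with no overlap (log2 1.01 ± 0.06, edgeR adjusted p = 6.8e-11). The second gave a small loss (-0.20 ± 0.07, adjusted p = 0.012), a call lost without EP300 KD2 replicate 2 (-0.17) or NS2 replicate 2 (-0.15). It did not pass against the mean of both controls (-0.03, adjusted p = 0.72), and NS2 was 0.36 above NS1. IFNE, an epithelial interferon gene within the span of MIR31HG on the same strand, was 0.80 and -0.45 on the log2 scale.

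MIR100HG (chromosome 11, 122028329 to 122422871) had 98.1, 105 and 96.7 CPM in EP300 KD1, against 58.6, 62.99 and 61.9 CPM in NS1. It had 64.1, 69.5 and 69.5 CPM in EP300 KD2, against 84.7, 89.7 and 85.1 CPM in NS2. Neither set overlapped, and EP300 KD2 lay between the 2 controls (log2 0.71 and -0.36, edgeR adjusted p = 1.1e-11 and 3.2e-07; NS2 against NS1 0.50). Against the mean of both controls the values were 0.46 and -0.11 (adjusted p = 5.2e-10 and 0.014). The SPACA6 row had 9.91, 10.6 and 8.74 CPM in EP300 KD1, against 6.77, 6.82 and 6.66 CPM in NS1. It had 7.87, 7.88 and 6.91 CPM in EP300 KD2, against 6.67, 7.28 and 7.87 CPM in NS2, and so was higher with the first hairpin alone (0.53, adjusted p = 2.8e-05, and 0.06, adjusted p = 0.60; difference -0.47, adjusted p = 0.0037, edgeR).

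MIR17HG, host of the miR-17 to miR-92a cluster, was lower with the first hairpin (log2 -0.33, edgeR adjusted p = 0.0030) and did not pass with the second (-0.07, adjusted p = 0.53) or for the difference (0.26, adjusted p = 0.083). MIR4435-2HG was lower with both (-0.28 and -0.19, adjusted p = 0.0023 and 0.031), the second not without any 1 library of EP300 KD2 or without NS2 replicate 1 or 3. MIR600HG passed with neither. Of 9 microRNA processing genes, 6 were higher and 3 lower with the first hairpin (32.6% and 32.3% of all rows), and 6 higher and 1 lower with the second (27.9% and 29.9%).

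**Figure D4:**
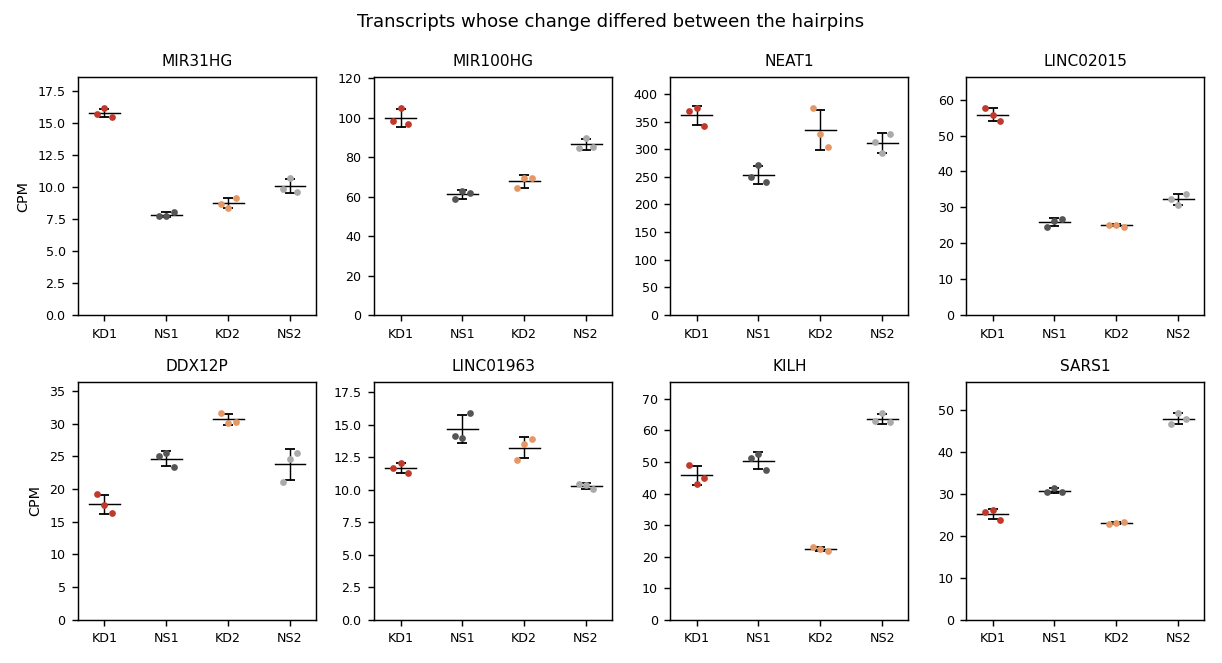
Levels in CPM (vertical axis, from 0) of 8 transcripts whose change differed between the hairpins, in EP300 KD1, NS1, EP300 KD2 and NS2, with a point per library and bars for the mean and SD of 3 libraries. NS2 lies above NS1 in MIR31HG, MIR100HG, NEAT1, LINC02015, KILH and SARS1 and below it in LINC01963.

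The largest gain of any member was in LINC02015 (chromosome 3, 177816865 to 177899224), which had 57.6, 55.7 and 54.2 CPM in EP300 KD1, against 24.7, 26.1 and 26.8 CPM in NS1. It had 25.2, 25.2 and 24.7 CPM in EP300 KD2, against 32.4, 30.7 and 33.7 CPM in NS2. Neither set overlapped, the first hairpin alone stood well above all other lines, and the difference was the largest among members (log2 1.11 and -0.37, edgeR adjusted p = 1.5e-14 and 6.0e-07; difference -1.47 ± 0.06, adjusted p = 3.7e-13). The largest loss was in KILH (chromosome 6, 53561289 to 53573275), which had 49.1, 43.1 and 44.99 CPM in EP300 KD1, against 51.2, 52.6 and 47.3 CPM in NS1. It had 23.00, 22.4 and 21.7 CPM in EP300 KD2, against 62.9, 65.5 and 62.7 CPM in NS2. The first set overlapped and the second left 35.1% of its control (log2 -0.14, adjusted p = 0.014, and -1.51 ± 0.05, adjusted p = 3.8e-15; difference -1.37, adjusted p = 6.6e-12, edgeR).

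DDX12P, a pseudogene of the helicase DDX11 family, had 19.2, 17.5 and 16.3 CPM in EP300 KD1, against 25.1, 25.5 and 23.4 CPM in NS1. It had 31.7, 30.2 and 30.2 CPM in EP300 KD2, against 21.2, 24.7 and 25.6 CPM in NS2. The controls overlapped each other, the first hairpin lay below both and the second above both (-0.48 and 0.37, edgeR adjusted p = 3.1e-06 and 4.4e-05). RRP7BP, a pseudogene of the ribosome biogenesis factor RRP7A, was -0.41 and 0.10. LINC01963 was -0.33 and 0.36, but NS2 was 0.51 below NS1, and against the mean of both controls neither passed (-0.08 and 0.10, adjusted p = 0.26 and 0.13). CASC8 was lower with the first hairpin (-0.44) and NS2 was likewise below NS1 (-0.48). GABPB1-IT1, an intronic transcript of the gene of the transcription factor subunit GABPB1, was 0.80 with the first hairpin and 0.13 with the second, while GABPB1 was -0.33 and -0.03. EBLN3P, a locus derived from an endogenous bornavirus-like element, was 0.23 and -0.06.

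Members that start beside a coding gene on the opposite strand were set against that gene. In 28 pairs with starts within 5 kb, both rows were called in the same direction in 4 and in opposite directions in 11 with the first hairpin, and in 6 and 1 with the second. The 2 counts for the second hairpin thus leaned the other way, and no test of either balance was made. Of all rows, 64.9% were called with the first hairpin and 57.8% with the second. How often pairs of rows are called alike or opposite elsewhere was not worked out. Of 18 pairs that overlap on opposite strands with starts farther apart, 6 were called alike and 3 opposite with the first hairpin, and 4 and 3 with the second. VPS9D1-AS1 and its partner VPS9D1 mirrored each other, at -0.25 and 0.33 with the first hairpin and 0.28 and -0.40 with the second. EMC3-AS1 was -0.25 and 0.39, with EMC3, a subunit of the membrane protein insertase EMC, at -0.10 and -0.38. TNS2-AS1 was 0.32 and -0.22, alike in sign to the focal adhesion gene TNS2 at 0.49 and -0.17. These antisense genes were picked with their values known. The library kit keeps strand, but none of the sources used here gives the strand setting of the counting, so reads of overlapping partners may not be fully separated.

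Of the 72 pseudogenes, 15 were higher and 24 lower with the first hairpin, and 14 higher and 20 lower with the second (32.6% and 32.3%, and 27.9% and 29.9%, of all rows), with 5 higher and 10 lower with both (15.3% and 17.3%). For 38 of them the parent named in the symbol was tested as well. Both were called in the same direction in 13 pairs with the first hairpin and in 8 with the second, where 1 further pair was called in opposite directions. With the first hairpin only the pseudogene was called in 8 pairs and only the parent in 10, and with the second in 4 and 12. Of all rows, 64.9% were called with the first hairpin and 57.8% with the second, and how often other pairs are called alike was not worked out. The parent rows of SMPD4, TPM3, FRG1 and RRN3 averaged 0.51 to 2.48 CPM, so their changes are poorly measured. In the 33 pairs with both transcripts in the reference, 0% to 83.0% of the pseudogene's 50-base words also occur in a parent transcript, with a median of 13.1%. Reads from such words cannot be assigned to one copy, and how reads mapping to several places were counted is unknown here, so pseudogene values that follow their parent are uncertain.

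For PDIA3P1 and ANXA2P2, 48 bases of copy and parent are printed, with the positions that differ in capitals. PDIA3 and ANXA2 lie on chromosome 15, PDIA3P1 on chromosome 1 and ANXA2P2 on chromosome 9. The sequences are from GENCODE v29 transcripts (GRCh38, transcript strand, 5′ to 3′).
PDIA3: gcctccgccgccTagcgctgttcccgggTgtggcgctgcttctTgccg
PDIA3P1: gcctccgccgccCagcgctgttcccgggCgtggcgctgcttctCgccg
ANXA2: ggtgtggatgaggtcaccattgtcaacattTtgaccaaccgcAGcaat
ANXA2P2: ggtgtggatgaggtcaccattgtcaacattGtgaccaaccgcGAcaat
Each pair differs at 3 of 48 bases here. The stretches were picked by a search for windows with a few differences, so this number does not measure how alike copy and parent are. PDIA3P1, a copy of the protein disulfide isomerase gene PDIA3, had 149, 145 and 143 CPM in EP300 KD1, against 112, 115 and 116 CPM in NS1. It had 124, 130 and 133 CPM in EP300 KD2, against 116, 125 and 118 CPM in NS2. The first set did not overlap and the second did, and the log2 changes of 0.35 and 0.11 stood beside 0.37 and 0.12 for PDIA3, with 19.2% of words shared.

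ANXA2P1 and ANXA2P2, copies of the membrane-binding annexin A2 gene, did not pass with the first hairpin (0.04 and 0.05) and were lower with the second (-0.27 and -0.22, edgeR adjusted p = 0.00081 and 0.0070), as was ANXA2 (-0.02 and -0.26). They share 8.10% and 59.2% of their words with ANXA2. CNTNAP3P2, which shares 56.3% of its words with the neurexin family gene CNTNAP3, had 9.34, 8.54 and 8.47 CPM in EP300 KD1, against 14.9, 15.1 and 14.5 CPM in NS1. It had 7.82, 7.80 and 8.42 CPM in EP300 KD2, against 12.7, 12.7 and 14.01 CPM in NS2. Neither set overlapped, and its changes of -0.76 and -0.72 stood beside -0.76 and -0.96 for CNTNAP3. The pair that went against each other with the second hairpin was SDHAP4, a copy of a succinate dehydrogenase gene, at 0.22 beside -0.16 for SDHA.

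**Figure D5:**
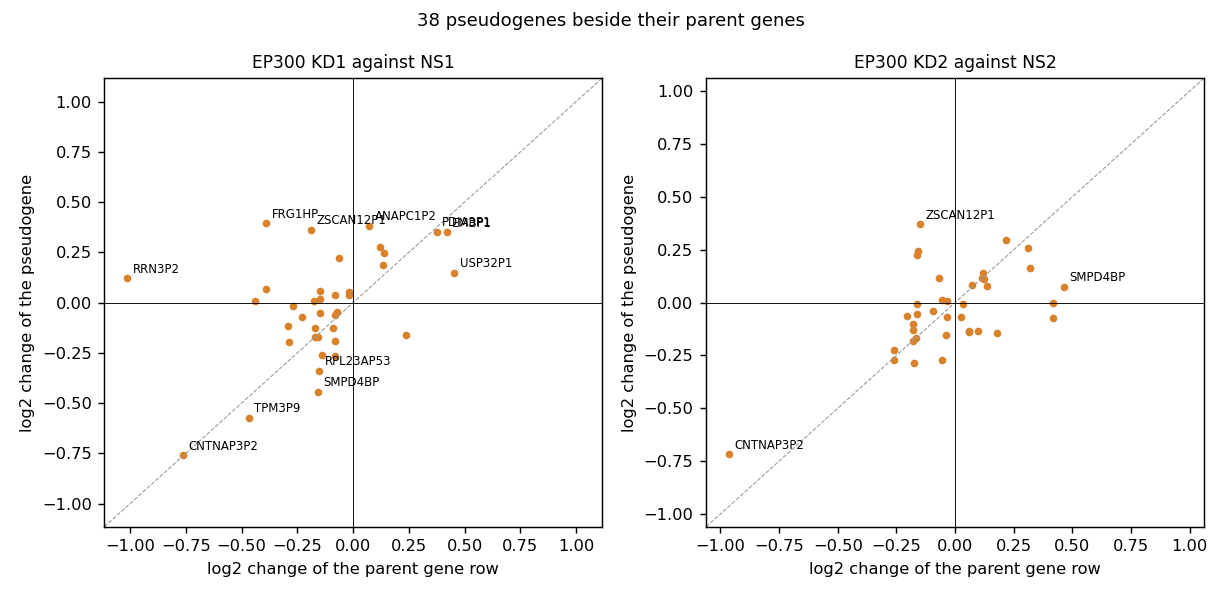
Log2 change of 38 pseudogenes (vertical axis) against that of the tested row of the parent gene (horizontal axis), for EP300 KD1 against NS1 on the left and EP300 KD2 against NS2 on the right. The dashed line marks equal change. CNTNAP3P2 is the lowest pseudogene in both panels, at -0.76 on the left and -0.72 on the right.

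The 27 rows with a coding symbol are non-coding transcripts of coding genes, or genes that RefSeq now annotates as coding. Of these, 6 were higher and 12 lower with the first hairpin (32.6% and 32.3% of all rows), and 2 higher and 4 lower with the second (27.9% and 29.9%). In many of them the NM_ row of the same symbol held few or no counts (0 in SRSF3, SRSF6, HNRNPDL, SAT1 and RABGGTB), and which transcript the reads come from was not tested. RABGGTB, a Rab prenylation enzyme gene that hosts snoRNAs, had 9.69, 7.85 and 8.13 CPM in EP300 KD1, against 12.7, 14.7 and 13.6 CPM in NS1. It had 13.6, 13.4 and 12.6 CPM in EP300 KD2, against 12.4, 14.2 and 13.7 CPM in NS2, so that the first hairpin alone stood apart (-0.68, adjusted p = 5.6e-07, and -0.03, adjusted p = 0.79; difference 0.65, adjusted p = 8.1e-05, edgeR). The rows of the splicing factor genes SRSF3, SRSF6, SRSF10 and HNRNPDL were lower with the first hairpin (-0.43, -0.31, -0.49 and -0.34), SRSF3 also with the second (-0.25, adjusted p = 0.031). These 4 were picked with their values known. The coding row of SRSF10 held 30127 counts over all libraries, against 3622 in its NR_ row. That coding row was -0.13 with the first hairpin and 0.02 with the second (edgeR adjusted p = 0.0032 and 0.64).

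The NR_ row of SARS1, the cytosolic seryl-tRNA synthetase gene, had 25.6, 26.1 and 23.8 CPM in EP300 KD1, against 30.3, 31.4 and 30.5 CPM in NS1. It had 22.8, 23.2 and 23.2 CPM in EP300 KD2, against 46.6, 49.2 and 47.9 CPM in NS2. Both sets were apart, with NS2 0.64 above NS1, and the changes of -0.29 and -1.06 became -0.61 and -0.74 against the mean of both controls. The coding row of SARS1 was -0.31 and -0.63. The NR_ row of DBF4B, a regulatory subunit gene of the CDC7 kinase, was -0.24 and 0.48 (edgeR adjusted p = 0.0011 and 3.5e-07), and its coding row -0.28 (adjusted p = 0.084) and 0.84 (adjusted p = 3.0e-05). That of IGSF9B, a cell adhesion gene, was 0.11 (adjusted p = 0.10) and -0.49, with NS2 0.50 below NS1.

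The 6 rows annotated as small RNAs lie over longer transcripts, and intervals of 56 to 127 bases collected 3329 to 72309 reads over all libraries. MIR3654, 56 bases wide, had 174, 161 and 166 CPM in EP300 KD1, against 191, 176 and 192 CPM in NS1. It had 154, 145 and 149 CPM in EP300 KD2, against 185, 178 and 191 CPM in NS2, with no overlap (-0.16 and -0.31, edgeR adjusted p = 0.0012 and 1.0e-06). The interval lies in an exon of a processed pseudogene within an intron of CHCHD3, and which transcript these reads come from was not tested. MIR5047 lies in an exon of the RNA helicase gene DDX5 and was -0.19 and -0.25, beside -0.18 and -0.15 for DDX5. Of the 14 rows with no gene name, 3 were higher and 8 lower with the first hairpin (32.6% and 32.3% of all rows) and 3 and 5 with the second (27.9% and 29.9%). NR_026718 was 0.68 and 0.60 and NR_015433 0.24 and 0.20, while NR_103783 was -0.79 and -0.61 and NR_039988 -0.65 and -0.71, the members of this class called alike with the largest changes in each direction.

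Rows kept out by the floor were counted as well. In 20 NR_ rows all 6 control libraries reached 200 counts and at least 1 shRNA library did not, and in 12 rows the reverse held. The floor is on raw counts, so these counts of rows depend on library depth as well as on level. GOLGA2P5 and APTR, among the 20, had 199 counts in EP300 KD1 replicate 1, the library with the lowest total (31396653). No share over all rows was worked out for either count. LINC01819 averaged 3.70 CPM in EP300 KD1 against 16.0 in NS1, and 2.36 CPM in EP300 KD2 against 9.71 in NS2. FOXD2-AS1 averaged 9.21 CPM in EP300 KD1 against 6.17 in NS1, and 10.1 CPM in EP300 KD2 against 6.60 in NS2. LINC01819 and FOXD2-AS1 were picked with their values known.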

How the data were processed

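The study holds 12 RNA-seq libraries of MCF10AT cells, in triplicate for EP300 KD1, NS1, EP300 KD2 and NS2. Per the labels' protocols, Trizol RNA entered a stranded mRNA kit. HISAT2 2.1.0, featureCounts and hg38 are named in the submitters' processing notes. The deposited values are raw read counts per RefSeq accession, 31396653 to 45606950 per library. How strand and reads mapping to several places were handled is not stated in any source used here. All pairs of libraries within a group differed beyond sampling noise (chi-square over degrees of freedom 1.86 to 4.54) and were kept as separate replicates. Nothing in the labels says that they were separate cultures, so p-values reflect the spread between libraries, which may be technical.

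All 13424 rows left by filterByExpr were fitted together with edgeR 4.0.16 in R 4.3.3, with TMM factors, a coefficient per group, the quasi-likelihood test and Benjamini-Hochberg adjustment over all of them (threshold 0.05). Each shRNA line was set against its numbered control, the 2 changes were compared, and NS2 was set against NS1. Standard errors (SE) were derived from the test statistic, and levels are TMM-scaled CPM, which are not per length. The fit was also run on simulated counts with few changed rows and the same spread for every row. That differs from these data, so the scaling used here was not tested by it. Symbols came from a RefSeq table (GRCh38.p14, 194 rows) and GENCODE v29 (12 rows), and 14 rows matched neither. For 29 members the symbol has further rows. Alternatives were DESeq2 1.42.0, limma 3.58.1, other scalings, filters and floors, a replicate block, leaving out each library and, added after seeing the data, the mean of both controls as reference and leaving out symbols with several rows.

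Members and lists were chosen with earlier results of these data known. Members named by rule were the 8 highest by CPM, the 8 most changed in each direction by both hairpins and the 5 by each with all libraries apart, up to 6 called in opposite directions, 3 in each direction between controls, 3 on each side of the floor and up to 6 of each list, with their partner genes. SPACA6, SNHG15, EPB41L4A-AS1, VPS9D1-AS1, EMC3-AS1, PDIA3P1, ANXA2P1, ANXA2P2, SDHAP4, RPL13AP5, MIR5047, LINC01819, FOXD2-AS1, SAT1 and the splicing factor rows fall outside this rule and were named with their values known. Same-numbered libraries did not deviate together (correlations -0.040 to 0.026 over 9 pairs), so the numbers do not pair them. XIST and 1 further member are counted, and their levels are not reported here.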

Additional observations from a re-analysis of the deposited data

Results flagged for a closer look

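The change with the second hairpin differed from that with the first, by edgeR's test of the difference itself, in the following named transcripts. Each value is the log2 change of EP300 KD2 against NS2 minus that of EP300 KD1 against NS1. The targeted gene EP300 differed by -0.18, a difference that did not pass with library totals alone (-0.11).

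The second hairpin gave the more negative change in LINC02015 (-1.47), KILH (-1.37), MIR31HG (-1.21), MIR100HG (-1.06), the NR_ row of SARS1 (-0.77), GABPB1-IT1 (-0.67), IGSF9B (-0.60), SMURF2P1-LRRC37BP1 (-0.46), NEAT1 (-0.40), TP53TG1 (-0.34), LINC00941 (-0.33), MALAT1 (-0.31), EBLN3P (-0.29), NORAD (-0.23) and MIR3654 (-0.15).

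It gave the more positive change in DDX12P (0.85), SNHG12 (0.73), DBF4B (0.73), LINC01963 (0.69), RABGGTB (0.65), RRP7BP (0.51), SNHG1 (0.50), SNHG4 (0.50), CASC8 (0.36), DANCR (0.30), MIR600HG (0.26), OIP5-AS1 (0.15) and SNHG6 (0.14).

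The controls differ between the 2 changes, and NS2 against NS1 passed for 46 of the 220 members, so a difference between hairpins and a difference between their control lines cannot be told apart from these values alone.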

How the results depend on the processing

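With a floor of 500 counts in each library, 82 members were left. Of these, 62 were called with the first hairpin (75.6%, against 64.9% of all rows) and 50 with the second (61%, against 57.8%). Calls in the same direction with both numbered 28 (34.1%, against 32.6%). For the difference 47 were called (57.3%, against 50.8%), and for NS2 against NS1 21 (25.6%, against 27.5%). With a floor of 100 counts the shares with the 2 hairpins were 58.5% and 43.6%, so the shares rose with the floor. Under the other alternatives the counts of members called stayed within 1.5 times those reported. With the replicate number as a block, they were 146, 108, 56, 102 and 45. Leaving out each library in turn gave 134 to 146 with the first hairpin, 92 to 108 with the second, 52 to 57 in the same direction, 92 to 103 for the difference and 35 to 47 between controls. DESeq2 called 132 and 91 with the 2 hairpins. Of 109 results for named transcripts that passed in the main fit, 88 kept their direction and still passed in all settings run. None of the 109 reversed, and 78 of 2322 values no longer passed, the cause of which was not tested. Results that did not pass in the main fit were not counted here. NEAT1 with the second hairpin was one of them, and it passed against the mean of both control lines. Groups of 3 libraries limit the precision, and at the floor counting error alone is 7.07%.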
